A study of Mus musculus with 16 samples.

Results

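Nearly all of the genes described here encode proteins of the cytosolic ribosome in mouse spleen cells. They were taken by symbol: Rpl or Rps followed by a digit, plus Rplp0, Rplp1, Rplp2 and Rpsa, without the Rps6k kinases, Rps19bp1 and copies with -ps in the name. This gave 84 of the 11713 genes of the deposited table, 51 named for the large subunit and 33 for the small subunit. Among the 51, Rpl6l (12503 UMIs, in 70.6% of droplets) is annotated as a processed pseudogene and was kept by the rule. Together they held 5637581 of 18139511 unique molecular identifiers (UMIs, each counting 1 captured RNA molecule), 31.1% of the UMIs in each library. Of the paralogues listed for naming, Rpl10l, Rpl39l and Rps4l were not analysed here.

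Each ribosome holds 1 copy of nearly every one of these proteins, and a cell needs them in equal amounts, so their genes are usually expressed together. The messenger RNAs are among the most abundant of a resting lymphocyte. Many begin with a run of pyrimidines, the 5′ terminal oligopyrimidine (TOP) tract, through which mTOR signalling and the RNA-binding protein Larp1 control their translation. Some family members have a second gene whose product can replace the first in the ribosome, among them Rps27l for Rps27, Rpl22l1 for Rpl22 and Rpl36al for Rpl36a.

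The study profiled spleens of female BALB/cJ mice aged 9 months by CITE-seq, which reads polyadenylated RNA and the tags of 30 antibodies from the same droplet. The labels give 16 samples in 4 groups of 4, RNA and antibody tags for each of 2 sources, Main1 and Main2, and no treatment or genotype was compared. Red blood cells were lysed for 5 minutes before staining. Each source was read as 1 library, and the labels do not say whether the sources are different animals, so a p-value measures no more than how these 2 libraries varied, which may be technical.

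Main1 held 3179 droplets and 7964712 UMIs with a median of 1789 UMIs per droplet, and Main2 held 3918 droplets and 10174799 UMIs with a median of 1778. The libraries shared 14 droplet barcodes. Droplets were sorted into 10 classes, called gates, by their antibody counts alone, which took 3087 droplets and left 4010 in none. Defining transcripts followed the gates for B cells, T cells, neutrophils (Ly6G gate, 383324 and 361801 UMIs in 6 neutrophil genes per 1000000 UMIs, the unit CPM), natural killer cells (NKp46 gate) and erythroid cells. The F4/80 gate held 19734 and 18520 CPM of 5 genes shared by monocytes and macrophages, 2954 and 2669 CPM of 7 red pulp macrophage genes, and 11372 and 47820 CPM of erythroid genes. The CD11b gate was mixed, with 7804 and 11875 CPM of plasma cell genes and 11291 CPM of neutrophil genes in Main1 against 412 in Main2. It also held 14081 and 4750 CPM of monocyte or macrophage genes, 4614 and 4071 of natural killer genes and 1142 and 945 of T-cell genes. Of its UMIs of the immunoglobulin gene Igha, 99.6% and 100% were in 1 droplet of each library. Haemoglobin RNA, in several gates mostly from 1 droplet, reached gates other than the erythroid one, and its removal from the total is given below where it moved a share.

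The results turn on Rps27, the member with the most UMIs, and on 2 genes related to it. Rps27 lies on the minus strand of chromosome 3 with its coding sequence at chr3:90212725-90213615 in a transcript of 4 exons, and its paralogue Rps27l lies on the plus strand of chromosome 9 at chr9:66946175-66949357, its transcript also of 4 exons (GRCm38, GENCODE vM21). Their coding sequences are printed to show how far apart these paralogues are, with capitals in Rps27l for each base that differs from Rps27.
Rps27: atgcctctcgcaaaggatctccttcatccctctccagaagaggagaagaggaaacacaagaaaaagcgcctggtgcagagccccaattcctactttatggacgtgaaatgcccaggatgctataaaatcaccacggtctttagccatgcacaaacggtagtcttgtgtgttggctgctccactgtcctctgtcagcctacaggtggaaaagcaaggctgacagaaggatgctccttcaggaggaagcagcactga
Rps27l: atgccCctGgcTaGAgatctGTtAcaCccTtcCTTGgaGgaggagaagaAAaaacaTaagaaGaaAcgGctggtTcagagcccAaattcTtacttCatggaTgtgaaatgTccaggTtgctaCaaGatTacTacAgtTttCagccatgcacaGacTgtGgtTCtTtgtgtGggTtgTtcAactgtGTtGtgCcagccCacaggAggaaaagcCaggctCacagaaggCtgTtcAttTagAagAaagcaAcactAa
The sequences were identical at 194 of 255 bases (76.1%) and differed at 61. Another gene, Rps27rt, has a transcript of 1 exon on the minus strand with its coding sequence at chr9:114982453-114982707, and it matched Rps27 at 255 of 255 bases. Reads within the coding sequence therefore cannot tell Rps27 from Rps27rt. How such reads were counted was not examined, so values of both are uncertain. The ratio of Rps27rt to Rps27 UMIs was 0.472 to 0.552 over the gates of Main1 and 0.344 to 0.425 over those of Main2, so the libraries did not overlap on it in any of the 10 gates. The copies with -ps in the name, left out by the rule, numbered 14 and held 84454 UMIs, led by Rpl23a-ps3 (19226), Rps12-ps3 (13103) and Rps18-ps3 (13067). Most are annotated as pseudogenes, but Rps12-ps3, Rpl9-ps6 and Rpl10-ps3 are annotated as protein-coding. These copies could take reads from their parent genes.

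The start sites of members were compared with the TOP tract, here a C as the first transcribed base followed by at least 4 further C or T bases. Of 75 start windows in RefSeq (GRCm38.p6) for 63 of the 84 members, 14 (18.7%) held such a run at the annotated start, against 823 of 32851 windows of all genes (2.51%). Allowing the run to begin within 5 bases of the annotated start gave 32 member windows (42.7%) and 6027 windows of all genes (18.3%). The windows below run from 15 bases before the start to 15 bases from it, with the run in capitals, and are shown because the first 3 genes carry the largest departures described later.
Rps27: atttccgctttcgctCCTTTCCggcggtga
Rps27rt: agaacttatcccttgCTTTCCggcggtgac
Rps27l: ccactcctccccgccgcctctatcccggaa
Rps6: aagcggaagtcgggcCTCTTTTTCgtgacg
Rpl28: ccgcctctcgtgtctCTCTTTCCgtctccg
They lie at chr3:90213634-90213663 (Rps27, minus strand), chr9:114982725-114982754 (Rps27rt, minus), chr9:66946071-66946100 (Rps27l, plus), chr4:86857353-86857382 (Rps6, minus) and chr7:4792950-4792979 (Rpl28, plus). Capitals mark only a run at the annotated start, so the Rps27l window has none, but it counted among those with a run within 5 bases of the start. A match or its absence is a description of these letters alone.

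UMIs were unequally divided among members. Rps27 held 5.71% of all member UMIs, Rps29 3.33%, Rpl41 2.92%, Rps27rt 2.62%, Rps19 2.48% and Rpl13 2.40%. At the other end, Rps27l had 5027 UMIs and was seen in 37.6% of droplets, Rpl29 had 3499 UMIs, and Rpl7l1, a protein related to Rpl7, had 1456. Rpl3l, the muscle form of Rpl3, had 26 UMIs in 23 droplets and did not reach the 50 UMIs needed for a test, so 83 members were tested between gates. Large-subunit genes gave 50.6% and 50.8% of member UMIs in the follicular gate of Main1 and Main2, 52.5% and 53.1% in the marginal zone gate, 54.5% and 54.8% in the CD11c gate and 57.4% and 57.2% in the erythroid gate.

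The share of UMIs in ribosomal protein genes was highest in the B-cell and T-cell gates, apart from the erythroid gate described below, and lowest in neutrophils, while the NKp46 gate lay below the CD11c, F4/80 and CD11b gates. Values are given for Main1 and then Main2. Shares were 30.6% and 31.2% in follicular B cells (881 and 953 droplets), 37.2% and 37.8% in marginal zone B cells (153 and 318), 33.8% and 33.1% in CD4 T cells (126 and 138), and 38.1% and 33.7% in CD8 T cells (13 and 41). Shares were 26.1% and 25.4% in the CD11c gate, 21.9% and 22.1% in the F4/80 gate, 21.4% and 22.2% in the CD11b gate, and 20.2% and 21.0% in the NKp46 gate. Neutrophils of the Ly6G gate held 5.92% and 8.503%, below every other gate, with 29 and 30 droplets. The CD11b and F4/80 gates overlapped, and the CD8 libraries overlapped both the CD4 and the marginal zone values. The other neighbours in this order did not overlap between their libraries, the NKp46 and CD11b gates by the least. The place of the NKp46 gate depended on the gating. With gates set on a log-ratio within each droplet it held 28.6% and 22.2%. The F4/80 gate was then at 21.5% and 20.9%, the CD11c gate at 25.1% and 25.7% and the CD11b gate at 22.7% and 21.8%. Shares carry no test, since 2 libraries against 2 cannot give an exact two-sided permutation p below 1 in 3.

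A share can move with the ribosomal UMIs or with all others, so both are given per droplet. The median droplet of the Ly6G gate held 142 and 177.5 member UMIs beside 2619 and 2719.5 others, against 486 and 475 member UMIs beside 1080 and 1041 others in the follicular gate. Neutrophil droplets were thus lower in ribosomal UMIs and higher in the rest. In the marginal zone gate the medians were 769 and 805 member UMIs beside 1333 and 1372.5 others, so both counts were above those of follicular cells. In the NKp46 gate they were 251 and 318 beside 1222 and 1298, which differed from the CD4 gate (653 and 632.5 beside 1176 and 1254.5) mainly in ribosomal UMIs. Capture in a droplet and RNA per cell cannot be told apart here.

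**Figure D1:**
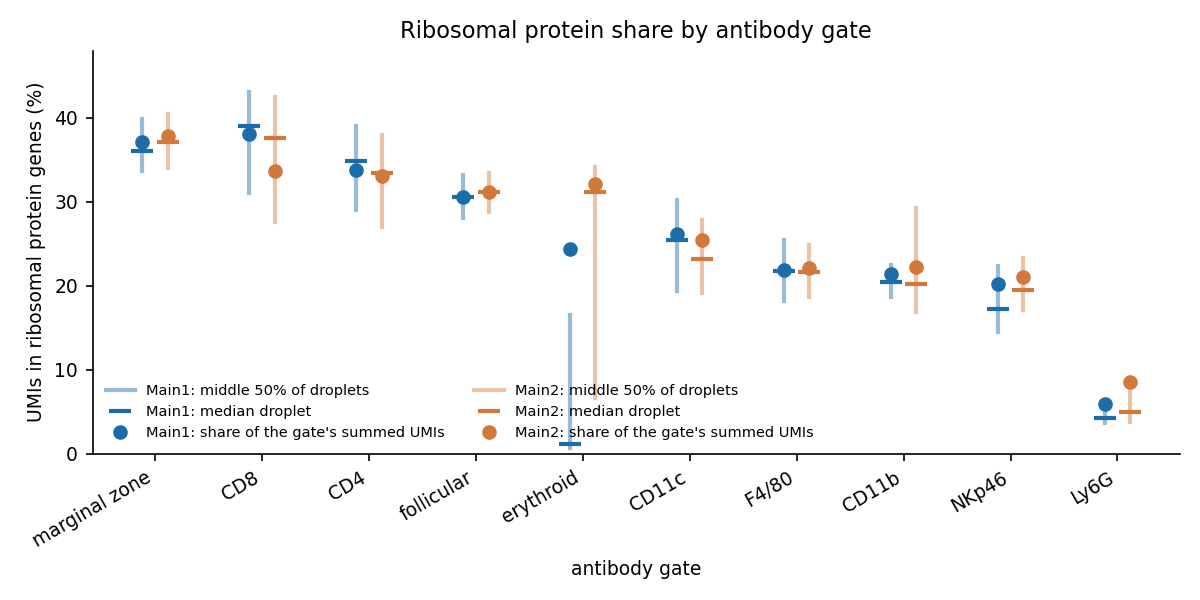
Share of UMIs in ribosomal protein genes (percent) for each antibody gate and library: dots are shares of summed UMIs, ticks the median droplet and bars the middle 50% of droplets. Marginal zone B cells sit at 37.2% and 37.8% and Ly6G droplets at 5.92% and 8.503%, and the erythroid gate has the widest bars.

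The erythroid gate (Ter119 or CD71) held droplets of 2 kinds. Its summed shares were 24.4% in Main1 and 32.1% in Main2, but its median droplets were at 1.15% and 31.2%. Of its droplets, 16 of 25 in Main1 and 8 of 30 in Main2 had under 3% of UMIs in ribosomal protein genes, and 6 and 22 had 20% or more. Droplets with under 4000 UMIs had shares of 2.62% (17 droplets) and 1.03% (6 droplets), while those with 4000 or more had 32.0% (8) and 32.9% (24). Haemoglobin took 28.9% of the gate's UMIs in Main1 and 6.88% in Main2, and without haemoglobin, immunoglobulin and T-cell receptor genes the shares were 34.4% and 34.6%. Library differences in this gate therefore moved with depth and haemoglobin.

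Marginal zone B cells, which guard the blood-filled border of the white pulp, carried more ribosomal protein RNA per UMI than follicular B cells. Differences between gates are given as log2 folds from edgeR's quasi-likelihood test on UMI sums per library and gate, with Benjamini-Hochberg adjustment over 8192 genes, and "rose" or "fell" is written where the adjusted p was under 0.05. All gates of the fit shared a common estimate of the spread between libraries, so a p-value does not measure how the compared gates alone varied. In this comparison all 83 tested members had a positive log2 fold, from 0.04 to 0.82. Their median was 0.43 against -0.01 for all genes, a difference of 0.45. Of these, 4 rose and 0 fell, where 2.86% of all genes rose, and 31 had an unadjusted p under 0.05. Without scaling beyond the total, the median log2 ratio of members was 0.30 in Main1 and 0.29 in Main2, and 80 members were above 0 in both libraries.

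The 4 that rose include 2 stalk proteins, which recruit elongation factors to the large subunit. Rplp0, the stalk base, had 4340 and 3900 CPM in follicular cells and 6540 and 6704 CPM in marginal zone cells, with no overlap, a log2 fold of 0.82 ± 0.25 (SE, edgeR adjusted p = 0.0284). Rplp1, which binds to it, had 2821 and 2822 CPM against 4435 and 4364 CPM, again apart, at 0.78 ± 0.25 (edgeR adjusted p = 0.0424). Rps12, a small-subunit protein, went from 1394 and 1372 CPM to 1924 and 2267 CPM, at 0.73 ± 0.23 (edgeR adjusted p = 0.0368). Rpl29, of the large subunit, had 210 and 149 CPM in follicular cells and 298 and 177 CPM in marginal zone cells, so libraries overlapped across gates although each library was higher in the marginal zone gate (0.50 ± 0.16, edgeR adjusted p = 0.0325). Rplp2, the other partner of Rplp0, was at 0.42 and did not pass (edgeR adjusted p = 0.482). By contrast Rps27 had 20224 and 21570 CPM in follicular cells and 20454 and 19586 CPM in marginal zone cells, a log2 fold of 0.07.

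The count of members that rose depended on the fit. With total UMIs only, with no filter on low genes or with no library block 0 rose, the edgeR adjusted p of Rplp0 being 0.106, 0.0573 and 0.0915, while 16 rose with DESeq2-type size factors, 68 with DESeq2, and 80 when the fit held these gates alone. In the fit of all gates 0 members departed from the ribosomal total by edgeR, that is, changed when UMIs were scaled to the members' own sum (1 at an unadjusted p under 0.05, where 15.6% of all genes were called). With DESeq2 4 departed, with droplets under 4000 UMIs 1, and in the edgeR fit of these gates alone 26. The higher share was present at each depth. With both libraries together, marginal zone against follicular droplets had 34.5% and 30.4% under 1500 UMIs, 36.1% and 31.5% from 1500 to 2500, 39.8% and 30.9% from 2500 to 4000, and 39.3% (31 droplets) and 27.0% (19 droplets) at 4000 or more. Transcripts of the marginal zone list were at 2247 and 2033 CPM in the marginal zone gate and 912 and 851 CPM in the follicular gate, and those of the follicular list at 674 and 535 against 2020 and 1986 CPM.

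The share also followed the antibody level within all 5467 B-gate droplets. In quintiles of CD21/35, the complement receptors that are high on marginal zone cells, it was 24.9% and 23.5% in the lowest, 30.4% and 30.5%, 31.2% and 31.3%, 32.9% and 32.1%, and 34.4% and 35.6% in the highest. Each step was upward in both libraries. Spearman's rho over droplets was 0.42 and 0.48 for CD21/35, the largest of the 30 antibodies in both libraries, and 0.22 and 0.27 for total UMIs, given as descriptions since droplets share a library and median depth was 1510.5 and 1479 UMIs in the lowest quintile and 2640 and 2423 in the highest. Without haemoglobin, immunoglobulin and T-cell receptor genes the lowest quintile was at 28.1% and 27.4% and the highest at 35.03% and 36.3%.

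**Figure D2:**
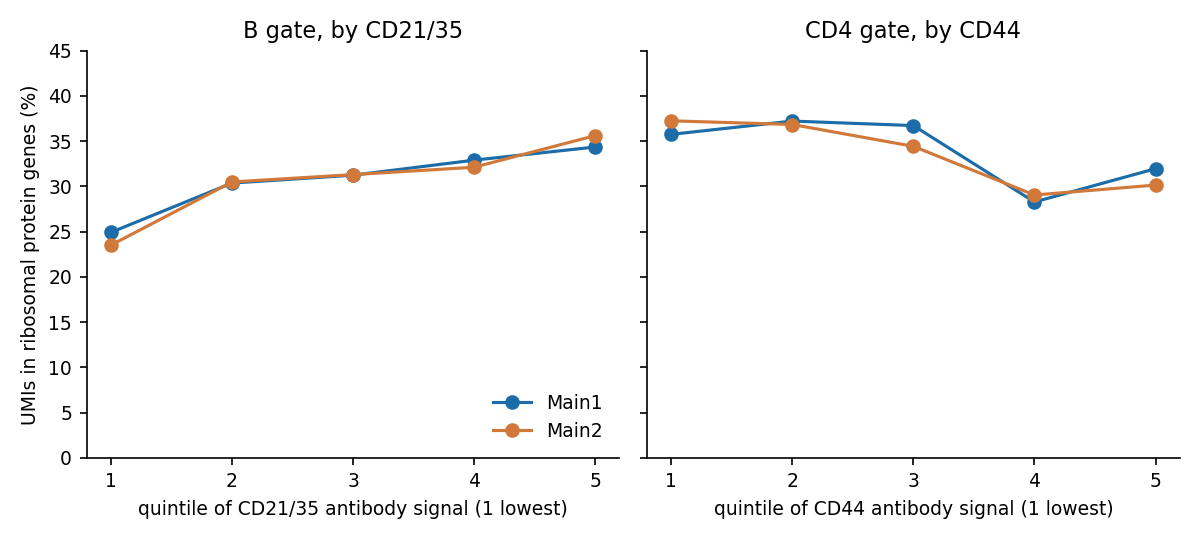
Share of UMIs in ribosomal protein genes (percent) by quintile of an antibody's level, from lowest to highest, for CD21/35 in the B gate and CD44 in the CD4 gate; each line is 1 library. The B-gate lines climb from 24.9% and 23.5% to 34.4% and 35.6%, and the CD4-gate lines are lower in the upper quintiles than in the lower ones.

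CD4 T cells were set against follicular B cells, whose shares of 33.8% and 33.1% and of 30.6% and 31.2% did not overlap. Between these gates 0 members were called by edgeR, where 13.4% of all genes were called, and 2 had an unadjusted p under 0.05 (8 called by DESeq2, and 20 when the fit held these gates alone). The median log2 fold was 0.05 against -0.04 for all genes, with members between -0.64 and 0.58. Relative to the ribosomal total also 0 departed (13.3% of all genes were called), with 4 at an unadjusted p under 0.05, 8 by DESeq2 and 28 in the fit of these gates alone. Between CD8 and CD4 T cells 0 members were called by edgeR and by DESeq2 and 0 had an unadjusted p under 0.05, where 0.696% of all genes were called. Their median log2 fold of -0.12 (all genes -0.22) turned to 0.13 with DESeq2-type size factors, so no direction is given. Relative to the ribosomal total 0 departed there by either tool (0 at an unadjusted p under 0.05, and 0.476% of all genes called).

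Among CD4 T cells the share was lower where CD44 was high. CD44 is an adhesion receptor whose surface level is raised on T cells that have met antigen. The upper CD44 tertile (40 and 47 droplets) had shares of 30.7% and 29.6%, the middle tertile 34.7% and 34.8%, and the lower tertile (47 and 41 droplets) 36.4% and 36.6%. The tertiles did not overlap between libraries. Thinned to 1000 UMIs per droplet, the upper and lower tertiles were at 29.5% and 27.9% against 36.4% and 36.1%. The median droplet held 627 and 590 member UMIs beside 1432.5 and 1546 others in the upper tertile, and 690 and 669 beside 1134 and 1114 in the lower. By these medians the upper tertile was lower in ribosomal UMIs and higher in all others. Summed member UMIs were 28890 and 37012 in the upper tertile and 31962 and 26856 in the lower. As a mean per droplet, the upper tertile thus held more ribosomal UMIs in both libraries. The direction for ribosomal UMIs per droplet therefore depended on the measure. In quintiles of CD44 the largest step lay between quintiles 3 and 4, from 36.7% and 34.4% to 28.3% and 29.1%, with 32.0% and 30.2% in the highest. Over droplets, rho with CD44 was -0.45 and -0.47, and CD31 had the largest positive values at 0.42 and 0.33.

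Summed naive T-cell transcripts (a list of 5 genes with Ccr7, Lef1, Tcf7 and Klf2 among them) were at 1000 and 929 CPM in the upper tertile and 2311 and 2087 CPM in the lower, and memory transcripts, Cd44 and S100a4 among them, at 4413 and 4469 against 262 and 300 CPM, with Cd44 and Itgb1 at 0 UMIs in both CD44-low sums. In the same order, natural killer genes were at 829 and 441 against 102 and 136 CPM and monocyte or macrophage genes at 319 and 513 against 159 and 286 CPM, where the NKp46 gate had 21346 and 22396 CPM of the former and the F4/80 gate 19734 and 18520 CPM of the latter. Their part in the ribosomal share was not tested. In the CD8 gate the share was 29.3% (16 droplets) for high and 39.9% (14) for low CD44 in Main2, and 41.1% (2) and 40.3% (4) in Main1, too few for a fit. In Main2 markers of other cells moved with this split, natural killer genes being at 4415 CPM in the high and 1168 CPM in the low group, monocyte or macrophage genes at 2467 and 162 CPM and dendritic genes at 210.2 and 0 CPM, and their part was not tested.

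Of 82 members tested among 962 genes, 24 fell in CD44-high CD4 cells and 0 rose by edgeR, where 3.74% of all genes fell. The median log2 fold was -0.28 against 0.01 for all genes, with members from -0.71 to 0.30, and 71 members were below 0 in both libraries. Rps29, a zinc-binding small-subunit protein and a cause of Diamond-Blackfan anaemia when mutated, had 9846 and 9026 CPM in CD44-high and 14928 and 14666 CPM in CD44-low cells. It fell by 0.69 ± 0.06 on the log2 scale (edgeR adjusted p = 0.0015). Rps27 had 16386 and 15498 against 21657 and 21814 CPM and fell by 0.49 ± 0.06 (edgeR adjusted p = 0.0042). Neither overlapped between tertiles. Rpl31 (-0.62), Rps26 (-0.58), Rps7 (-0.55), Rps20 (-0.55), Rps27rt (-0.55) and Rpl36a (-0.48) also fell and were among the 10 largest.

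The fit had 1 residual degree of freedom, and DESeq2 called 0 members. With droplets thinned to 1000 UMIs 11 fell, with total UMIs only 11, and with a split at the median of CD44 59. Relative to the ribosomal total 2 members rose and 4 fell, where 11.1% of all genes were called. Rpl41, the shortest ribosomal protein, held 2.79% and 3.05% of member UMIs in CD44-high against 2.29% and 2.57% in CD44-low cells and rose by 0.27 (edgeR adjusted p = 0.0161). Rpl37a, a large-subunit zinc-binding protein, rose by 0.25 (edgeR adjusted p = 0.0399). Rps29 (-0.38), Rps27rt (-0.24) and Rps27 (-0.17) were among those that fell. With the 5 members of most UMIs left out of the scaling 1 rose and 5 fell, and with thinned droplets, or droplets under 4000 UMIs, 1 member was called.

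Per UMI, the myeloid gates held less of nearly every member than the lymphocyte gates. The mean of the Ly6G, F4/80, CD11c and CD11b gates was set against the mean of the follicular, marginal zone, CD4 and CD8 gates. Of 83 members, 80 fell (13.4% of all genes fell) and 1 rose (8.59% of all genes rose). The median log2 fold was -0.93 against -0.36 for all genes, a difference of -0.57, and without the CD11b gate the counts were 80 and 1 again. Per droplet, median member UMIs overlapped between these sets of gates. They were 142 and 177.5 (Ly6G), 598 and 465.5 (F4/80), 781 and 667 (CD11c) and 404 and 434.5 (CD11b). Lymphocyte gates had 486 and 475 (follicular), 769 and 805 (marginal zone), 653 and 632.5 (CD4) and 749 and 857 (CD8). Median other UMIs ran from 1682.5 to 2719.5 in the myeloid gates and from 1041 to 1543 in the lymphocyte gates.

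Rpl12, a large-subunit protein at the base of the stalk, fell most, by 1.70 ± 0.13 on the log2 scale (edgeR adjusted p = 1.76e-34). It had 2209 and 2088 CPM in CD4 cells, 760 and 687 CPM in the F4/80 gate and 127 and 265 CPM in the Ly6G gate. Its myeloid and lymphocyte libraries did not overlap. Rps27rt fell by 1.48, Rps27 by 1.44 ± 0.12 (edgeR adjusted p = 5.23e-29) and Rpl22l1 by 1.43, followed by Rps20 (-1.27), Rpl13a (-1.25), Rpl36a (-1.23), Rps19 (-1.22), Rplp1 (-1.19) and Rps7 (-1.18).

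By role, the stalk proteins Rplp0 (-0.72), Rplp1 and Rplp2 (-0.98) fell, as did Rpl5 (-1.06) and Rpl11 (-0.91), the partners of 5S rRNA. Rps6, the substrate of S6 kinase, fell by 0.83, and Rpsa, also known as the laminin receptor, fell by 1.09. Rps27a, which is made as a fusion with ubiquitin, fell by 0.40, and Rpl10, which joins the large subunit late in its assembly, by 0.36. Rpl22 (-0.78), Rpl26 (-0.67), Rpl39 (-0.83) and Rps4x (-1.04) fell too, and so did the paralogue Rpl36al (-0.33).

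Rps27l was the single member that rose, by 0.54 ± 0.16 (edgeR adjusted p = 0.0044). It is a known target of p53. Its values were 203 and 203 CPM in follicular, 207 and 301 in marginal zone, 265 and 214 in CD4 and 198 and 216 in CD8 cells. In the myeloid gates it had 84.3 and 200.4 CPM (Ly6G), 367 and 418 (F4/80), 509 and 361 (CD11c) and 371 and 460.5 (CD11b). The Ly6G libraries thus lay within or below the lymphocyte range and the other 3 myeloid gates above them, and with droplets under 4000 UMIs the fold was 0.14 and did not pass (edgeR adjusted p = 0.778).

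Relative to the ribosomal total, 15 members rose (26.7% of all genes rose) and 9 fell (2.10% of all genes fell) in myeloid cells. With the 5 members of most UMIs left out of the scaling these counts were 12 and 11, and by DESeq2 20 and 19. Rps27l rose by 1.46 ± 0.15 (edgeR adjusted p = 2.66e-14), from 0.0665% and 0.0651% of member UMIs in follicular cells to 0.168% and 0.189% in the F4/80 gate. Rpl7l1 (1.03, with library log2 ratios of 2.09 and 0.49 and at most 19 UMIs in any myeloid sum), Rpl7a (0.65), Rpl36al (0.60) and Rps9 (0.57) came next. Rps9 held 4.01% and 2.34% of member UMIs in the Ly6G gate, 2.45% and 2.20% in the F4/80 gate and 1.54% and 1.47% in follicular cells. Rpl12 (-0.78), Rps27rt (-0.54), Rpl22l1 (-0.51), Rps27 (-0.50) and Rps20 (-0.33) fell most, Rps27 no longer past the threshold with droplets under 4000 UMIs (-0.36, edgeR adjusted p = 0.172).

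**Figure D3:**
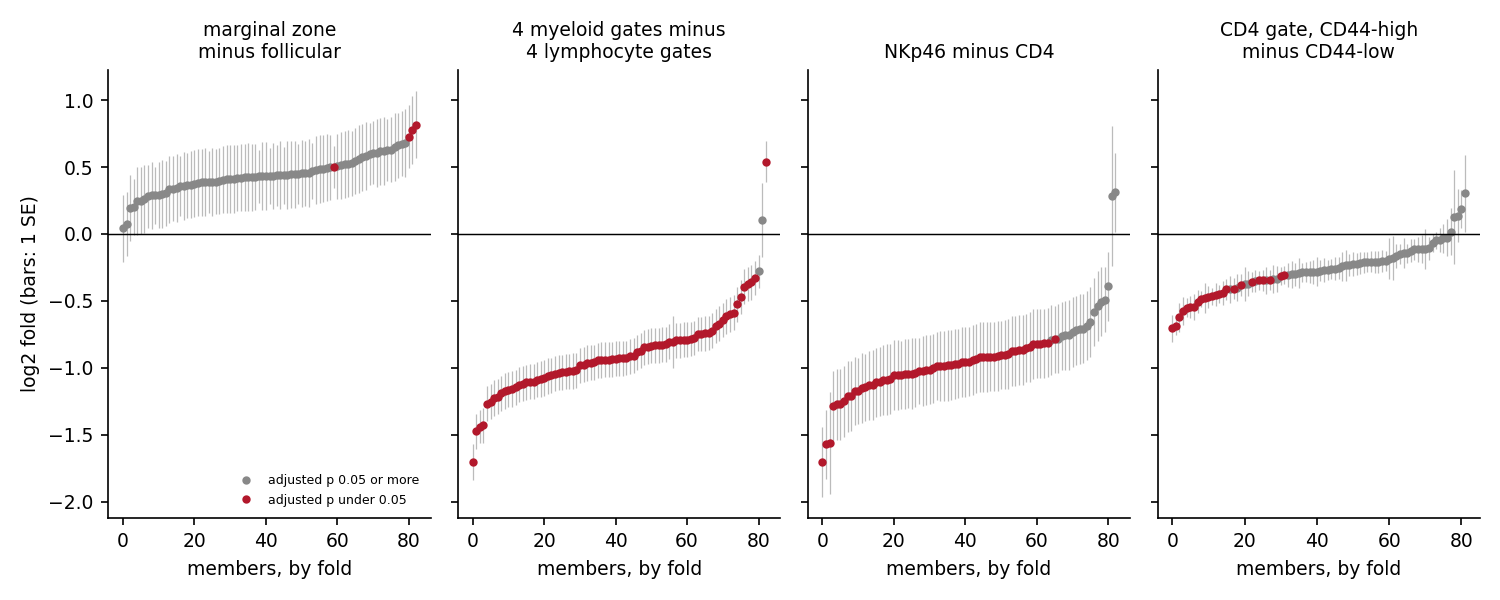
Log2 fold of each tested member (points, sorted, with bars of 1 SE) in 4 comparisons, in red where the edgeR adjusted p was under 0.05. Points lie above 0 for marginal zone against follicular cells (0.04 to 0.82) and mostly below 0 for myeloid against lymphocyte gates (-1.70 to 0.54), NKp46 against CD4 cells and CD44-high against CD44-low cells.

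Natural killer cells had a lower ribosomal share than CD4 T cells, and the counts of members called between them depended on the fit. Of 83 members 65 fell, where 2.82% of all genes fell, and 0 rose by edgeR. The median log2 fold was -0.95 against -0.15 for all genes, a difference of -0.80. Without scaling beyond the total, the median log2 ratio of members was smaller, -0.69 in Main1 and -0.65 in Main2. With total UMIs only, 18 fell, and with gates set on a log-ratio within each droplet 4 fell, the gate's share then being 25.4%. Rps19, the small-subunit protein most often mutated in Diamond-Blackfan anaemia, had 8293 and 8220 CPM in CD4 cells and 3145 and 2958 CPM in the NKp46 gate, far apart, and fell by 1.71 (edgeR adjusted p = 9.62e-09). Rpl12 had 835 and 897 CPM there and fell by 1.57. Rpl29 (-1.56), Rps28 (-1.29), Rps6 (-1.27), Rps20 (-1.27), Rps15a (-1.25), Rps2 (-1.21), Rpl36a (-1.21) and Rps27rt (-1.17) complete the 10 largest. Relative to the ribosomal total 3 members departed (12.1% of all genes were called). Rps27l rose by 1.27 (edgeR adjusted p = 0.000713), while Rps19 (-0.74, edgeR adjusted p = 0.0054) and Rpl12 (-0.60, edgeR adjusted p = 0.0319) fell. By DESeq2 10 departed, with droplets under 4000 UMIs 8, with the log-ratio within each droplet 1, and in the fit of these gates alone 19.

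The erythroid gate had the highest mean share of ribosomal UMIs for Rps27l and the lowest for Rps27 and Rps27rt. Against lymphocytes, 10 of 83 members rose (21.4% of all genes rose) and 10 fell (21.4% of all genes fell). Both counts were thus below the share of all genes. With total UMIs only, 6 rose and 16 fell. Rps27l had 908 and 1272 CPM, above every other gate, and rose by 2.40 ± 0.16 (edgeR adjusted p = 1.78e-48), with UMIs in 9 and 22 droplets and 27.6% and 9.65% of them in the top droplet. Rps27 had 4426 and 6086 CPM, below every gate but Ly6G, and fell by 1.73 ± 0.22 (edgeR adjusted p = 2.93e-14). Rps27rt fell by 1.94 and Rps29, at 4350 and 5700 CPM against 10934 and 11357 in follicular cells, by 1.03. Rps28 (-0.81), Rps19 (-0.71), Rpl34 (-0.65), Rps13 (-0.55), Rpl38 (-0.51) and Rps24 (-0.49) fell as well.

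Rps2, a small-subunit protein near the mRNA entry, had 5730 and 7457 CPM in erythroid droplets against 2765 and 2842 in follicular cells and rose by 1.07 (edgeR adjusted p = 9.73e-08). Rps12 had 2492 and 3109 CPM and rose by 0.98. Rpl7a (0.88), Rpl29 (0.80), Rpl28 (0.78), Rplp0 (0.57), Rpl7 (0.54) and Rps27a (0.47) rose too. These values come from the deep droplets of the gate. In its droplets under 4000 UMIs haemoglobin took 85.8% and 94.2% of UMIs. The member share there was 18.6% and 18.3% without haemoglobin, immunoglobulin and T-cell receptor genes. The part of haemoglobin in the folds of that fit was not tested, and its share of all genes called is not given. With droplets under 4000 UMIs 80 members fell and 0 rose, Rps2 was at -2.47, and Rps27l was at 0.12 and not called (edgeR adjusted p = 1.0).

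Relative to the ribosomal total the erythroid comparison gave 25 members that rose (23.3% of all genes rose) and 9 that fell (19.8% of all genes fell), or 14 and 13 with the 5 members of most UMIs left out of the scaling. Rps27l (2.53), Rps2 (1.20), Rps12 (1.111), Rpl7a and Rpl28 (0.92) rose most, and Rps27rt (-1.81), Rps27 (-1.60), Rps29 (-0.90), Rps28 (-0.68) and Rps19 (-0.58) fell most. With droplets under 4000 UMIs 3 members departed. Rps27l (2.97, edgeR adjusted p = 0.0164) and Rps27rt (-2.10, edgeR adjusted p = 0.00186) kept their direction and passed. The erythroid sums there held only 1168 UMIs (17 droplets) and 130 UMIs (6 droplets) over all members, so these folds rest on few UMIs.

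Over all gates, 32 of 83 members departed from the ribosomal total in an F-test by edgeR, where 64.8% of all genes did. The smallest adjusted p-values were those of Rps27l (2.09e-25), Rps27 (2.39e-14), Rps27rt (2.51e-14), Rps2 (3.07e-11), Rps12 (1.85e-09), Rps9 (7.54e-09), Rpl7a (8.33e-09), Rpl12 (9.36e-09), Rpl28 (7.94e-08) and Rps29 (1.71e-07). Without the erythroid gate 17 members departed. As a mean of both libraries, Rps27 ran from 1.85% of member UMIs in the erythroid gate to 6.77% in follicular cells, and Rps27l from 0.058% in CD8 cells to 0.384% in the erythroid gate, a ratio of 6.62. The ratio of highest to lowest gate had a median of 1.56 over members and was under 1.5 for 36 of them and 2 or more for 15. Rpl11 (1.13), Rps3 (1.15), Rpl21 (1.18) and Rpl39 (1.21) were among the smallest ratios.

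**Figure D4:**
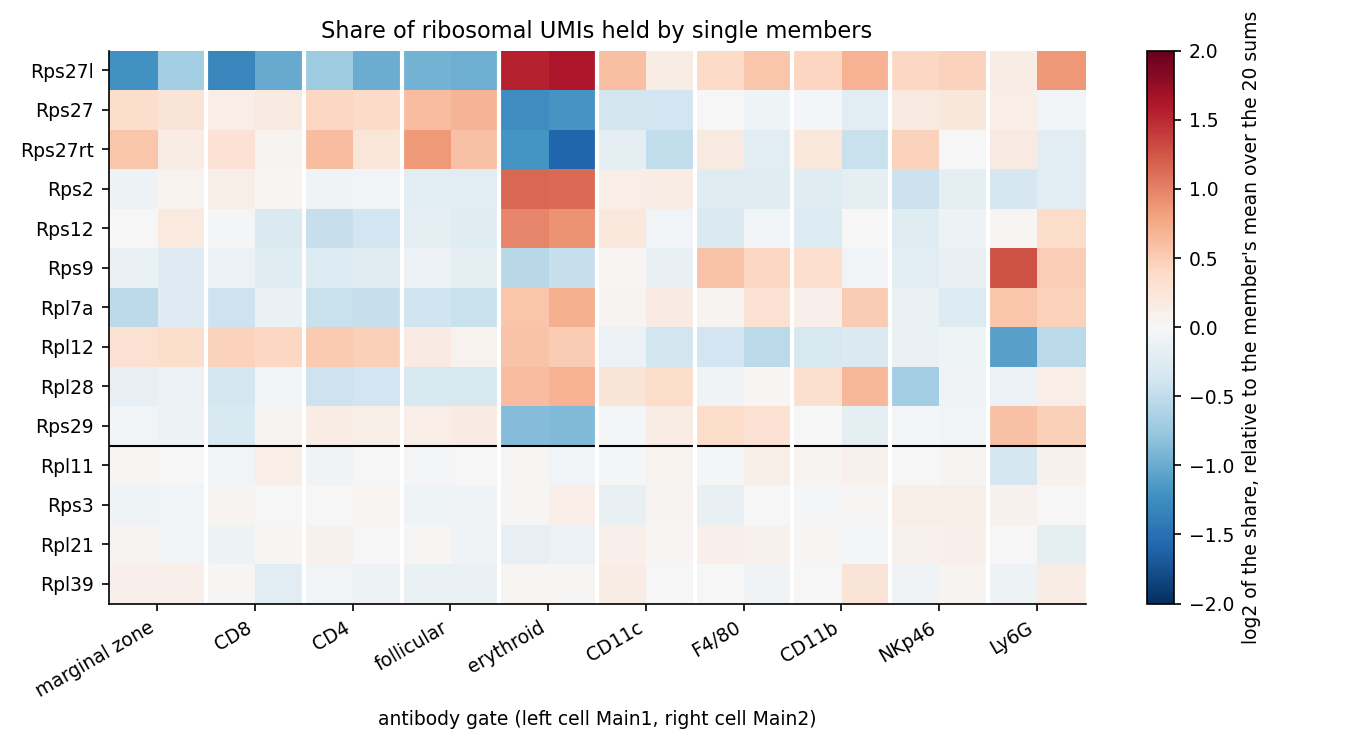
Heat map of the log2 share of ribosomal UMIs of a member in each gate and library, relative to that member's mean over the 20 sums, for the 10 members of smallest F-test p (top) and 4 members with some of the largest p (bottom). Rps27, Rps27rt and Rps27l stand apart in the erythroid columns, and the lower members are near 0 in all columns.

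The balance of the paralogue pairs differed between gates. Rps27l gave 0.995% and 0.931% of the UMIs of the Rps27 and Rps27l pair in follicular cells and 17.0% and 17.3% in the erythroid gate, with libraries nearly equal in both. Rpl22l1 had 1.75 and 1.78 UMIs per Rpl22 UMI in CD4 cells, 1.65 and 1.57 in follicular cells and 0.988 and 0.964 in the F4/80 gate. Their coding sequences were 66.9% identical over 387 aligned positions. Rpl36al had 0.301 and 0.280 UMIs per Rpl36a UMI in follicular cells, 0.196 and 0.236 in marginal zone cells and 0.651 and 0.585 in the F4/80 gate, with coding sequences identical at 282 of 321 bases (87.9%). In the latter 2 pairs the F4/80 libraries lay outside those of the lymphocyte gates named. Libraries differed more in the other myeloid gates. Rpl22l1 per Rpl22 was 0.923 and 1.55 (CD11b), 0.952 and 1.44 (Ly6G) and 1.32 and 0.765 (CD11c). Rpl36al per Rpl36a was 0.680 and 0.273 (CD11b), 0.559 and 0.483 (Ly6G) and 0.488 and 0.676 (CD11c). The NKp46 gate had 1.63 and 1.63 for the Rpl22 pair and 0.579 and 0.503 for the Rpl36a pair. These ratios are descriptions without a test.

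**Figure D5:**
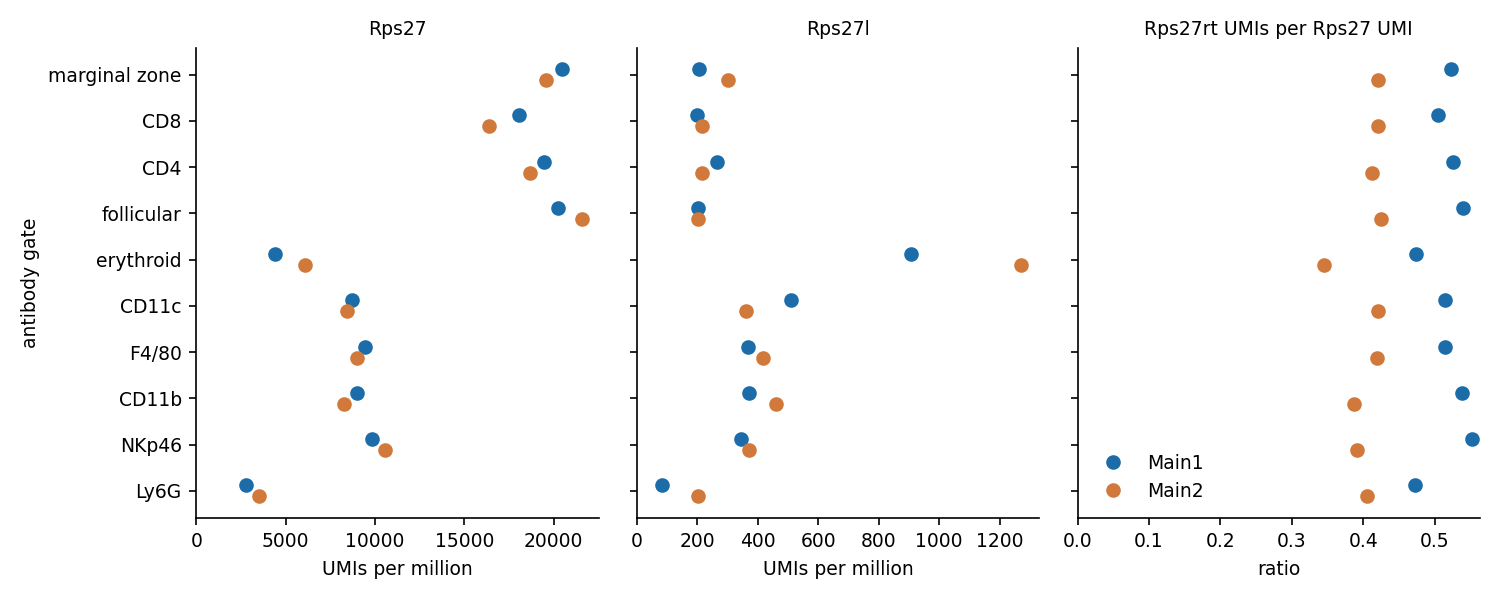
Rps27 and Rps27l in CPM and the ratio of Rps27rt to Rps27 UMIs, by gate and library. Rps27 is at 19586 to 21570 in B cells and at 4426 and 6086 in erythroid droplets, Rps27l is highest there at 908 and 1272, and the ratio is 0.472 to 0.552 in Main1 and 0.344 to 0.425 in Main2.

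Other genes of translation were read from lists, as counts beside those of the members. In marginal zone against follicular cells, where 2.86% of all genes rose, Rack1, a ribosomal protein outside the naming rule, rose (0.68, edgeR adjusted p = 0.0298) while Fau, another, did not pass. Of 8 elongation genes 1 rose, Eef1b2, which recharges elongation factor 1A (0.72, 510 and 524 CPM to 762 and 796). Of 29 ribosome biogenesis genes 2 rose, the nucleolar protein Npm1 (0.75) and Nhp2 (0.65), of 31 initiation genes 0 and of 77 mitochondrial ribosome genes 1. Of 10 genes around TOP mRNA control 3 rose. Myc, a transcription factor that drives ribosome production, had 20.02 and 34.2 CPM in follicular and 125 and 152 CPM in marginal zone cells, a log2 fold of 2.48 (edgeR adjusted p = 3.64e-21), while Akt1 (1.81) and Larp1 (1.52) rose on few UMIs, 9 and 18 for Akt1 and 9 and 19 for Larp1 in the marginal zone sums. The list medians were 0.37, 0.25, 0.09, 0.08 and 0.06 for elongation, biogenesis, initiation, mitochondrial ribosome and TOP control, against 0.43 for members and -0.01 for all genes.

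In myeloid cells Rack1 (-0.81) and Fau (-0.56) fell, with 7 of 8 elongation genes (median -0.86), 14 of 29 biogenesis genes (median -0.98), 12 of 31 initiation genes (median -0.38), 4 of 10 TOP control genes (median -0.64) and 8 of 77 mitochondrial ribosome genes (median -0.31), against medians of -0.93 for members and -0.36 for all genes, of which 13.4% fell. The mitochondrial ribosome list was thus below the share of all genes. Nop56 (-1.46) and Npm1 (-0.96) were among the biogenesis genes, and Rrp9 and Nob1, the largest by fit, had 0 UMIs in all Ly6G and CD11b sums, so their folds are not given. Eif4ebp1, an inhibitor of the cap-binding factor Eif4e, rose (1.56), as did Mrpl33 (1.20). In the erythroid gate 47 of 77 mitochondrial ribosome genes, 19 of 31 initiation genes, 17 of 29 biogenesis genes, 5 of 8 elongation genes and 3 of 10 TOP control genes rose, where 21.4% of all genes rose. Their medians were 0.83, 0.75, 0.82, 0.48 and 0.27, against 0.01 for the members and -0.12 for all genes. Eif4ebp1 (2.96), Mrps27 (2.68), Eef1e1 (2.19) and Nop16 (2.09) had the largest fold of their lists. Erythroid Fau (-0.83) fell, and Rack1 rose (0.69). In the NKp46 gate, where 2.82% of all genes fell, 0 genes of these 5 lists rose by edgeR, and Eef1b2, Tpt1, Eif3e, Fbl, Npm1 and Mrpl52 fell. Between CD4 and follicular cells 1 of 31 initiation genes fell, the RNA helicase Eif4a2 (-0.64), and 2 of 77 mitochondrial ribosome genes rose. Both counts were below the 13.4% of all genes called there. In the CD44 comparison 0 genes of these lists were called by edgeR, with at most 15 of a list tested.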

How the data were processed

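Per the submitters' processing notes, reads were processed with bcl2fastq and Cell Ranger 3.0.2 on mm10. The deposited tables hold raw counts, as whole-number UMIs per gene and antibody-tag counts per droplet, with no normalization by the authors. How antibody tags were counted is not stated in those notes or the labels. No further filter was applied to droplets, and doublets were kept: 553 droplets positive for CD3 and a B antigen entered no T or B gate. Symbols came from a reference table of gene names, and 31 of 11713 identifiers had none.

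Antibody counts were centred as log-ratios across droplets and divided by a 2-component Gaussian mixture (scikit-learn 1.9.0, posterior above 0.5). The B gate was CD3-negative and positive for a B-cell antigen, B220 and CD79b among them. Within it marginal zone droplets were those in the upper 25% for CD21/35 whose IgD lay under the median, and follicular droplets had IgD no lower than the median and were outside that 25%. The T gate was CD3-positive and B-negative, divided by CD4 and CD8a. Among the rest, gates were taken in the order Ly6G, F4/80, NKp46 (5 or more counts), CD11c, CD11b and Ter119 or CD71. CD44 tertiles were cut within the CD4 gate over both libraries.

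UMIs were summed per library and gate. edgeR 4.0.16 (R 4.3.3) quasi-likelihood tests used all 10 gates in 1 fit, TMM scaling, genes with 50 or more UMIs over the sums and the library as a block, which pairs the gates since each library contributes to every gate. Adjusted p-values are Benjamini-Hochberg over all genes tested. A second fit set the library size to the members' UMIs. DESeq2 1.42.0 was an alternative, with other scalings, filters, gates, depth limits and groups of gates, and leaving out either library. Intervals and counts of UMIs cover counting error only.

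Genes were named where they passed the test with the same sign in both libraries, up to 10 by size of fold in each direction (up to 5 relative to the ribosomal total, and 10 by the F-test), plus paralogues and members of known role. Some genes that met this rule are not reported here. Lists are given by count with examples of large fold. The members and lists were chosen with earlier results of these data known. On simulated counts for CD4 against follicular cells, the test recovered 76% of genes changed 2-fold and 100% of those changed 4-fold. The simulated spread was lower than that of the gate fit, whose common dispersion was 0.0212. Only non-member genes with UMI sums well above the minimum for a test were changed. These rates therefore do not give the power to call members, whose folds were mostly smaller.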

Additional observations from a re-analysis of the deposited data

How the results depend on the processing

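Shares moved by more than their library SD as follows. Without haemoglobin, immunoglobulin and T-cell receptor genes they were 31.7% (follicular), 38.2% (marginal zone), 22.7% (F4/80), 25.2% (CD11b) and 34.5% (erythroid). As medians over droplets they were 36.6% (marginal zone), 34.1% (CD4), 4.56% (Ly6G), 21.7% (F4/80), 18.4% (NKp46), 24.3% (CD11c), 20.3% (CD11b) and 16.2% (erythroid). With droplets under 4000 UMIs they were 21.5% (F4/80), 19.3% (NKp46), 24.3% (CD11c), 20.3% (CD11b) and 1.83% (erythroid), and with gates on the log-ratio within each droplet 31.8% (CD4), 21.2% (F4/80) and 25.4% (NKp46). Counts of called members moved by over 1.5 times in these cases. CD4 against follicular had 0, and 8 with DESeq2, 1 without those 3 gene classes and 20 with the 2 gates alone. Marginal zone against follicular had 4, and 16 with DESeq2-type factors, 0 with total UMIs, 0 with no filter, 68 with DESeq2, 2 under 4000 UMIs, 2 with the log-ratio within each droplet, 15 without those gene classes, 80 with the 2 gates alone, 2 without the erythroid gate and 8 without the CD11b gate. Erythroid had 20, and 47 with DESeq2 and 80 under 4000 UMIs. NKp46 against CD4 had 65, and 18 with total UMIs and 4 with the log-ratio within each droplet. CD44 had 24, and 11 with total UMIs, 38 with no filter, 0 with DESeq2, 57 with the log-ratio within each droplet, 59 with a median split, 53 per total antibody count and 11 thinned. Departures from the ribosomal total were 0 for CD4 against follicular, and 8 with DESeq2, 3 under 4000 UMIs, 1 with the log-ratio within each droplet, 28 with the 2 gates alone and 1 without the CD11b gate. They were 0 for marginal zone, and 4 with DESeq2, 1 under 4000 UMIs and 26 with the 2 gates alone. They were 24 for myeloid and 39 with DESeq2, and 34 for erythroid and 3 under 4000 UMIs. They were 3 for NKp46, and 10 with DESeq2, 8 under 4000 UMIs, 1 with the log-ratio within each droplet and 19 with the 2 gates alone. They were 6 for CD44, and 0 with DESeq2, 1 under 4000 UMIs, 13 with the log-ratio within each droplet, 11 with a median split, 11 per total antibody count and 1 thinned. Over any gate they were 32, and 17 without the erythroid gate.

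With no replicate block, that is without pairing by library, members called were 0 for marginal zone against follicular, 79 for myeloid, 16 for erythroid, 47 for NKp46 and 23 for CD44, and departures over any gate were 26. It moved no other count of called members by over 1.5 times. Under 4000 UMIs the erythroid log2 folds reversed for Rpl12 (-2.98), Rpl22 (-1.92), Rpl22l1 (-3.58), Rpl28 (-1.68), Rpl29 (-2.52), Rpl36al (-2.51), Rpl7 (-2.35), Rpl7a (-2.85), Rplp0 (-2.62), Rplp1 (-2.46), Rps12 (-1.49), Rps2 (-2.47) and Rps27a (-2.40), and for Rps29 relative to the ribosomal total (0.21). Causes were not tested. Of 2392 alternatives over 253 single-gene results, 2141 kept direction and side of the threshold, 130 lost and 107 gained the call, and 14 reversed. Fits without the erythroid or CD11b gate or with 2 gates alone were chosen after seeing the data, and leaving out either library gave ratios with no test. Gates of 12 to 41 droplets limit the CD8, CD11b, CD11c, Ly6G and erythroid values, and Rps27 and Rps27rt cannot be told apart by coding sequence.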
